A study of Mus musculus with 2 samples.

Results

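Pdcd1+ Tox+ CD8 T cells of mouse liver tumors were CD8 T cells in which messages of both PD-1 and TOX were counted. The cells were chosen by their own UMI counts, a UMI (unique molecular identifier) being a tag that marks 1 captured mRNA molecule. A cell belonged to the group when it held at least 2 UMIs of Cd3d, Cd3e and Cd3g together, at least 2 of Cd8a and Cd8b1 together, none of Cd4 or Foxp3, and at least 1 UMI each of Pdcd1 and Tox. Cells with UMIs of 4 or more of 10 mitosis genes (Mki67, Top2a and the like) were set apart as cycling. This gave 644 of the 25814 cells that passed the cell filter, 310 of them from the lenvatinib library and 334 from the combo library.

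Both libraries came from live CD45+ cells sorted from tumors of a lenvatinib-resistant model of hepatocellular carcinoma (HCC), the main cancer of liver cells. In this Trp53KO/MYCOE model, male wild-type C57BL/6J mice received plasmids for human MYC with luciferase, for Cas9 with a guide against Trp53, and for Sleeping Beauty transposase by hydrodynamic injection into the tail vein, so that the tumor genes sat only in liver cells that took the plasmids up. All mice were given lenvatinib, an inhibitor of several receptor tyrosine kinases, until the tumors grew through it, and were then given lenvatinib alone (lenvatinib) or lenvatinib with palbociclib, an inhibitor of CDK4 and CDK6 (combo). Each treatment was 1 library and no library of untreated tumors was analysed here. The number of mice behind each library is not given in the sources used here, so no value below has a replicate check, and treatment and library cannot be told apart.

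PD-1, encoded by Pdcd1, is a receptor that lowers T cell receptor signalling when it meets its ligands on tumor or myeloid cells. TOX is a nuclear factor that is turned on by lasting antigen stimulation and holds CD8 T cells in the state called exhaustion. In that state, cells carry several inhibitory receptors at the same time. It runs from a stem-like form that keeps the factor TCF1 (gene Tcf7) and can divide to a terminal form that carries TIM-3 (gene Havcr2). PD-1 also appears on recently activated T cells, so neither gene alone marks exhaustion.

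The lenvatinib library held 14509 barcodes and the combo library 11989, of which 14201 and 11613 had at most 6000 genes and at most 25% mitochondrial UMIs, with medians of 5541 and 5754 UMIs. The Pdcd1+ Tox+ cells held a median of 5511 UMIs under lenvatinib, between 926 and 36837 per cell, and of 5582 under combo, between 1903 and 32320. Scrublet, a caller of 2 cells in 1 droplet, marked 18 and 12 of them, and these were kept. The libraries shared 49 barcodes, of which 1 was a Pdcd1+ Tox+ cell under lenvatinib and none was one under combo. A gene's level is given as CPM, its UMIs per 1000000 UMIs summed over the cells of a group, and every interval is an exact 95% interval that covers counting error only. The share that a count of 0 allows is given as 3 counts of the total. A gene was compared between 2 groups when it reached 50 CPM in 1 of them and 10 UMIs over both, and was counted as higher or lower when the ratio passed 1.5-fold. A gene could thus enter through only the group where it was high, which favours calls past 1.5-fold near the limit.

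The label was checked against the markers. The marker genes Cd8a (525 and 565 CPM under lenvatinib and combo), Cd8b1 (575 and 658 CPM), Pdcd1 (230 and 271 CPM) and Tox (514 and 351 CPM) were present because the rule asked for them. In mm10, Cd8a lies on chromosome 6 from 71373427 to 71379173, Cd8b1 beside it from 71322788 to 71337494, Pdcd1 on chromosome 1 from 94038305 to 94052553 and Tox on chromosome 4 from 6686353 to 6991557. Markers of hepatocytes and of red cells summed to 5.78 and 5.33 CPM under lenvatinib and to 3.41 and 3.84 CPM under combo. Gamma-delta T cell markers summed to 32.9 and 17.9 CPM. Markers of natural killer (NK) cells were present, given here without cells that held many UMIs of another cell type, described below. Klre1 was at 119 and 121 CPM, Klra7 at 75.8 and 12.3, Klrb1c at 41.0 and 26.5, Ncr1 at 31.6 and 18.0, and Klra3 at 18.4 and 8.99. Whether T cells with NK traits were among the members was not tested. Among B cells, which should hold neither gene, 1 of 543 under lenvatinib (0.184%) and 0 of 606 under combo carried UMIs of both Pdcd1 and Tox. The latter allows a share of up to 0.495%, while the B cells held medians of 3381 and 3568.5 UMIs.

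Pdcd1+ Tox+ cells made up 310 of 3288 CD8 T cells outside mitosis under lenvatinib, 9.43% (8.45 to 10.5), and 334 of 2719 under combo, 12.3% (11.1 to 13.6). Combo thus exceeded lenvatinib 1.30-fold, and setting the ends of the intervals against each other bounds this at 1.06 and 1.61. Such bounds are wider than an interval of the ratio itself. Of all Cd3+ cells, Pdcd1+ Tox+ cells were 4.12% and 5.83%. These shares follow from the 2 genes of the rule, and those genes differed between the libraries in opposite directions. Pdcd1 was found in 11.2% of CD8 T cells under lenvatinib and in 20.5% under combo, whereas Tox was found in 48.5% and 40.6%. The class with Pdcd1 and no Tox was 1.79% (59 cells) against 8.24% (224 cells), and the class with Tox and no Pdcd1 was 39.1% against 28.4%. Of the Pdcd1+ cells, 84.0% (79.9 to 87.6) also held Tox under lenvatinib and 59.9% (55.7 to 64.0) under combo.

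Most members sat close to the threshold. Pdcd1 was counted by a single UMI in 191 of 310 members under lenvatinib and 184 of 334 under combo. Tox was counted by a single UMI in 69 and 127 members, and by 4 or more in 134 and 74. After each CD8 T cell was thinned to 2000 UMIs, the share of members was 3.21% against 3.66%, 1.14-fold and bounded at 0.768 and 1.69, which includes 1. At 4000 UMIs, which left out 602 and 661 shallower cells, it was 6.07% against 8.45%, 1.39-fold and bounded at 1.04 and 1.87. Asking for at least 2 Tox UMIs gave 7.33% and 7.61%, a ratio of 1.04. The rule used these counts, so they describe the choice of cells and are not a result about it.

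**Figure D1:**
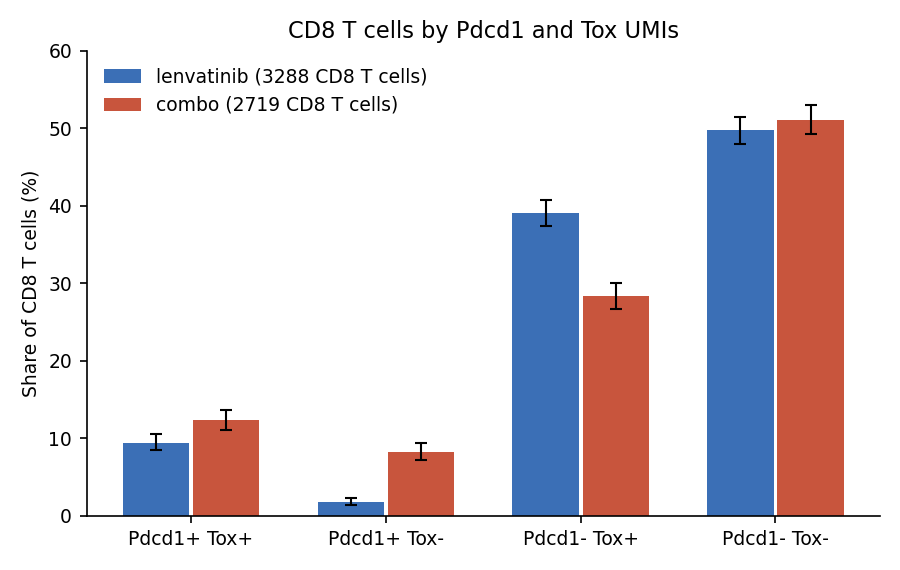
Share of CD8 T cells outside mitosis (%, vertical axis from 0) that fell into the 4 classes of Pdcd1 and Tox detection, for the lenvatinib and the combo library. Bars are shares and error bars exact 95% binomial intervals (counting error only). The class with both genes was 9.43% and 12.3%, the class with Pdcd1 alone 1.79% and 8.24%, and the class with neither 49.7% and 51.1%.

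Cycling cells were set apart by the rule. Of CD8 T cells with both Pdcd1 and Tox, 72 of 382 passed the limit of 4 mitosis genes under lenvatinib, 18.8% (15.0 to 23.1), and 23 of 357 under combo, 6.44% (4.13 to 9.51). The combo share was 0.342 of the other, bounded in the same way at 0.178 and 0.632. Over all CD8 T cells the share was 10.3% and 2.51%, and thus also lower under combo.

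Against the 1635 and 1390 CD8 T cells with neither gene (Pdcd1- Tox-), the Pdcd1+ Tox+ cells held most, though not all, of the other inhibitory receptors that could be compared at higher levels in both libraries, and 11 of 15 and 7 of 13 of the transcription factors compared. The naive and stem-like genes that could be compared were at lower levels in both. Under lenvatinib, 367 of 3190 genes compared (11.5%) were higher in the Pdcd1+ Tox+ cells and 109 (3.42%) lower. Under combo, 178 of 2774 genes (6.42%) were higher and 64 (2.31%) lower. The median gene was 1.15 times and 1.09 times the level of the Pdcd1- Tox- cells, and dividing by it gave 200 higher and 244 lower genes under lenvatinib and 110 and 97 under combo. Of 2651 genes compared in both libraries, 121 were higher in both, which is 44.6% of those higher under lenvatinib and 76.6% of those higher under combo. Another 43 were lower in both, 49.4% and 70.5% of those lower in each. The Pdcd1- Tox- cells held more UMIs, with medians of 6962 and 5861.5, and the part of depth in the choice of cells was not tested.

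**Figure D2:**
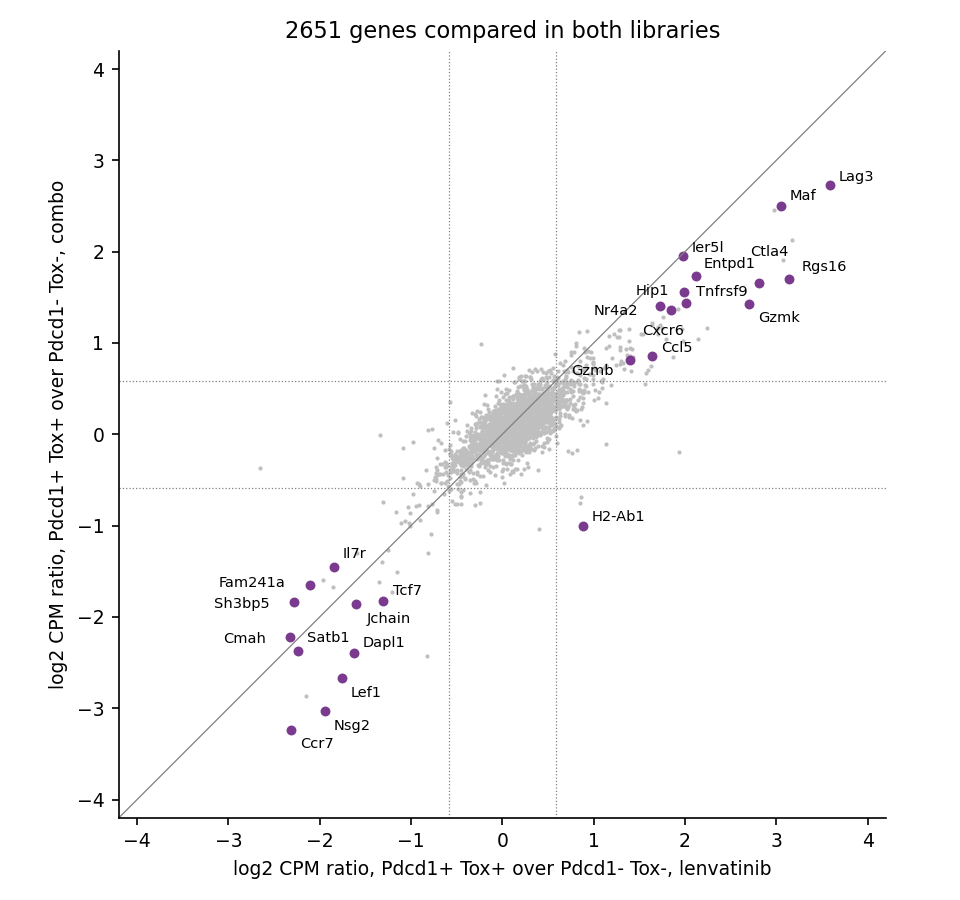
Log2 ratio of CPM in Pdcd1+ Tox+ over Pdcd1- Tox- CD8 T cells, in the lenvatinib library (horizontal axis) and the combo library (vertical axis). Each point is 1 of 2651 genes compared in both libraries, the dotted lines stand at 1.5-fold, the diagonal marks equal ratios, and the colored points carry the names of genes described in the text. Lag3, Maf and Ctla4 lie at the upper right, with 121 genes higher in both libraries, and Ccr7 and Satb1 at the lower left, with 43 lower in both.

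Of 12 listed inhibitory receptors other than PD-1, 7 could be compared under lenvatinib and 6 under combo, and 5 and 4 of these were higher in the Pdcd1+ Tox+ cells, before and after dividing by the median ratio. Without that division none was lower, and with it 1 was lower in each library. Lag3 and Entpd1 in both libraries, and Havcr2 under lenvatinib, reached 50 CPM only in the Pdcd1+ Tox+ cells. The limit thus favours higher receptors in these counts. Lag3, a receptor for MHC class II on chromosome 6 from 124904361 to 124911705, was counted at 66.2 CPM in Pdcd1+ Tox+ and 5.50 CPM in Pdcd1- Tox- cells under lenvatinib, a ratio of 12.0. Under combo Lag3 was at 79.4 and 12.0 CPM, a ratio of 6.64. Of the genes ranked by the smaller of their log2 ratios in the libraries, Lag3 came first. Ctla4, which competes with CD28 for its ligands, was at 275 and 39.3 CPM under lenvatinib and at 336 and 107 CPM under combo. Entpd1, the ATP-cleaving ectoenzyme CD39, had ratios of 4.34 and 3.31, and Cd160 ratios of 1.78 and 1.68. Klrc1, which encodes the NKG2A receptor, was the 1 that was lower relative to the median ratio, with 84.9 CPM against 113 under lenvatinib and 98.1 against 138 under combo.

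Havcr2 lies on chromosome 11 from 46454935 to 46481255. Its level was 56.9 CPM in Pdcd1+ Tox+ cells and 3.77 CPM in Pdcd1- Tox- cells under lenvatinib, a ratio of 15.1, and 35.4 and 6.61 CPM under combo, where it stayed under the 50 CPM limit. To compare shares of cells, each cell was thinned to 3000 UMIs, which kept 292 and 324 members. Havcr2 was then found in 43 of 292 members under lenvatinib, 14.7% (10.9 to 19.3), and in 32 of 324 under combo, 9.88% (6.85 to 13.7). The second share was 0.671 of the first, bounded by the ends of the intervals at 0.355 and 1.26. These bounds are wider than an interval of the ratio itself, so they do not decide whether the shares differed. In Pdcd1- Tox- cells the shares were 1.20% and 2.15%, and in B cells, which should lack Havcr2, 1.17% and 1.61%. Before thinning, 24.8% and 17.1% of members held the gene.

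Among 7 receptors counted together (Lag3, Havcr2, Tigit, Ctla4, Cd160, Cd244a and Entpd1), members held on average 1.42 under lenvatinib and 1.51 under combo at 3000 UMIs. At least 2 of the 7 were found in 42.8% (37.1 to 48.7) and 47.5% (42.0 to 53.1) of members. The same was found in 5.22% and 11.0% of Pdcd1- Tox- cells, and in 1.75% and 1.15% of B cells. Members thus held more of these receptors per cell than Pdcd1- Tox- cells of the same library at equal depth, and the intervals of the 2 libraries overlapped. Ctla4 was the receptor found most often, in 50.7% and 56.5% of members, and Lag3 was found in 17.1% and 22.2%. Tigit was found in 3.08% and 5.25% of members and in 0 of 343 and 0 of 436 B cells, which allow shares of up to 0.875% and 0.688%.

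**Figure D3:**
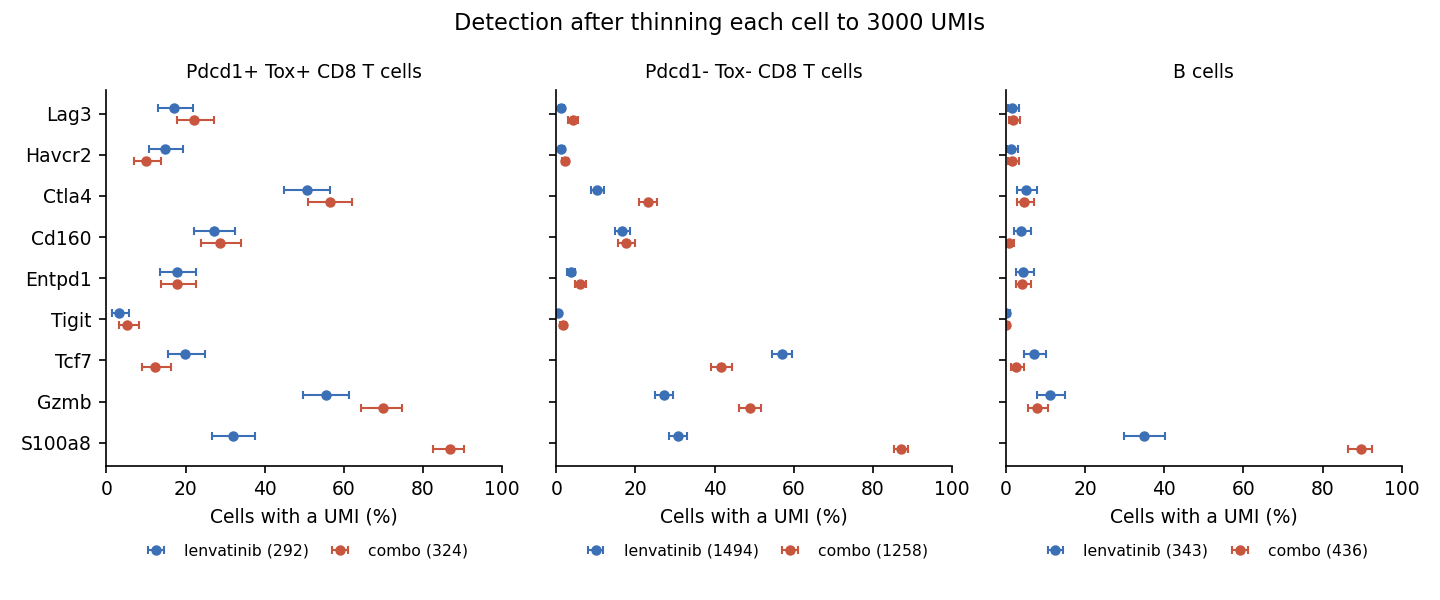
Share of cells (%, horizontal axis) with at least 1 UMI of each gene after every cell was thinned to 3000 UMIs, for Pdcd1+ Tox+ CD8 T cells, Pdcd1- Tox- CD8 T cells and B cells of both libraries. Error bars are exact 95% binomial intervals (counting error only), and the B cells show the shares in a cell type other than T cells. Entpd1 was found in 4.37% and 4.13% of B cells, and whether B cells express it was not tested. Ctla4 was found in 50.7% and 56.5% of members, Tcf7 in 19.9% and 12.3%, and S100a8 in about the same share of all 3 cell groups within a library.

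Of 17 listed transcription factors, 11 of 15 compared under lenvatinib and 7 of 13 under combo were higher in members and none lower. Division by the median ratio gave 9 higher and 1 lower under lenvatinib and 7 and 0 under combo. Maf, a factor that drives inhibitory receptor genes, was at 266 and 32.1 CPM under lenvatinib and at 158 and 28.0 CPM under combo, ratios of 8.30 and 5.65. Nr4a2, an orphan nuclear receptor induced by calcium signalling, was at 581 and 175 CPM and at 453 and 172 CPM. Nfatc1, the calcium-driven factor itself, had ratios of 2.43 and 2.21, and Ikzf2, which encodes Helios, 2.30 and 1.78. Tox2, the closest relative of Tox, was below the limit for comparison, with 32.0 CPM in members against 0.492 in Pdcd1- Tox- cells under lenvatinib and 16.2 against 1.05 under combo. At 3000 UMIs, Tox2 was found in 8.56% and 4.94% of members and in 0.201% and 0.238% of Pdcd1- Tox- cells, while 1 of 343 and 0 of 436 B cells held it.

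Of 12 listed naive and stem-like genes, all 8 that could be compared were lower in members in both libraries, also after division by the median ratio. Some, such as Ccr7 and Lef1, reached 50 CPM only in the Pdcd1- Tox- cells, so the limit favours this direction. For genes below the limit, ratios are given without the cells that held many UMIs of another cell type, described below. Slamf6 was at 1.90 and 0.847, Cxcr5 at 1.26 and 0.410, Id3 at 0.643 and 0.660, and Bach2 at 0.435 and 0.237. Tcf7, which encodes TCF1 and lies on chromosome 11 from 52252371 to 52283014, was at 136 CPM in members and 336 in Pdcd1- Tox- cells under lenvatinib, and at 65.7 and 233 CPM under combo. Ccr7, which guides T cells into lymph nodes, was at 38.7 against 192 CPM and at 18.8 against 177 CPM. Satb1, a chromatin organizer of naive T cells, was at 136 against 640 CPM and at 58.9 against 304 CPM. Il7r, the receptor for the survival cytokine IL-7 on chromosome 15 from 9505788 to 9530176, was at 59.5 against 214 CPM and at 125 against 342 CPM.

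Of the cytotoxic granule list, 9 of 12 genes compared under lenvatinib and 7 of 10 under combo were higher, against 1 and 0 lower, and dividing by the median ratio left 6 and 4 higher. Gzmk, the granzyme of precursor and memory-type CD8 T cells, was at 251 and 38.6 CPM under lenvatinib and at 311 and 116 CPM under combo. Gzmb had ratios of 2.63 and 1.76. Gzmm went the other way, with 13.8 CPM in members against 64.5 under lenvatinib and 3.41 against 28.1 under combo. The chemokine gene Ccl5 was at 12413 and 3974 CPM under lenvatinib and at 14114 and 7810 CPM under combo. B cells also held Ccl5 UMIs in 63.0% and 52.8% of cells at 3000 UMIs, against 97.9% and 99.7% of members. The part of free RNA in the level of Ccl5 was not tested.

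Of 12 migration genes compared in each library, 8 were higher and 2 lower under lenvatinib and 5 higher and 0 lower under combo, and division by the median ratio gave 6 and 2 and 5 and 2. Cxcr6, a chemokine receptor of liver-resident T cells on chromosome 9 from 123806475 to 123811760, was at 327 and 91.0 CPM under lenvatinib and at 209 and 81.3 CPM under combo. Rgs16, which dampens chemokine receptor signalling, had ratios of 8.81 and 3.25. Tnfrsf9, the costimulatory receptor 4-1BB, had ratios of 3.96 and 2.95. Cd69, an early activation and residence marker, was at lower levels in members, with 310 against 545 CPM and 323 against 472 CPM. Of the 15 genes of T cell receptor signalling that could be compared in each library, 2 were higher in members and none lower, so most of this list stayed within 1.5-fold.

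**Figure D4:**
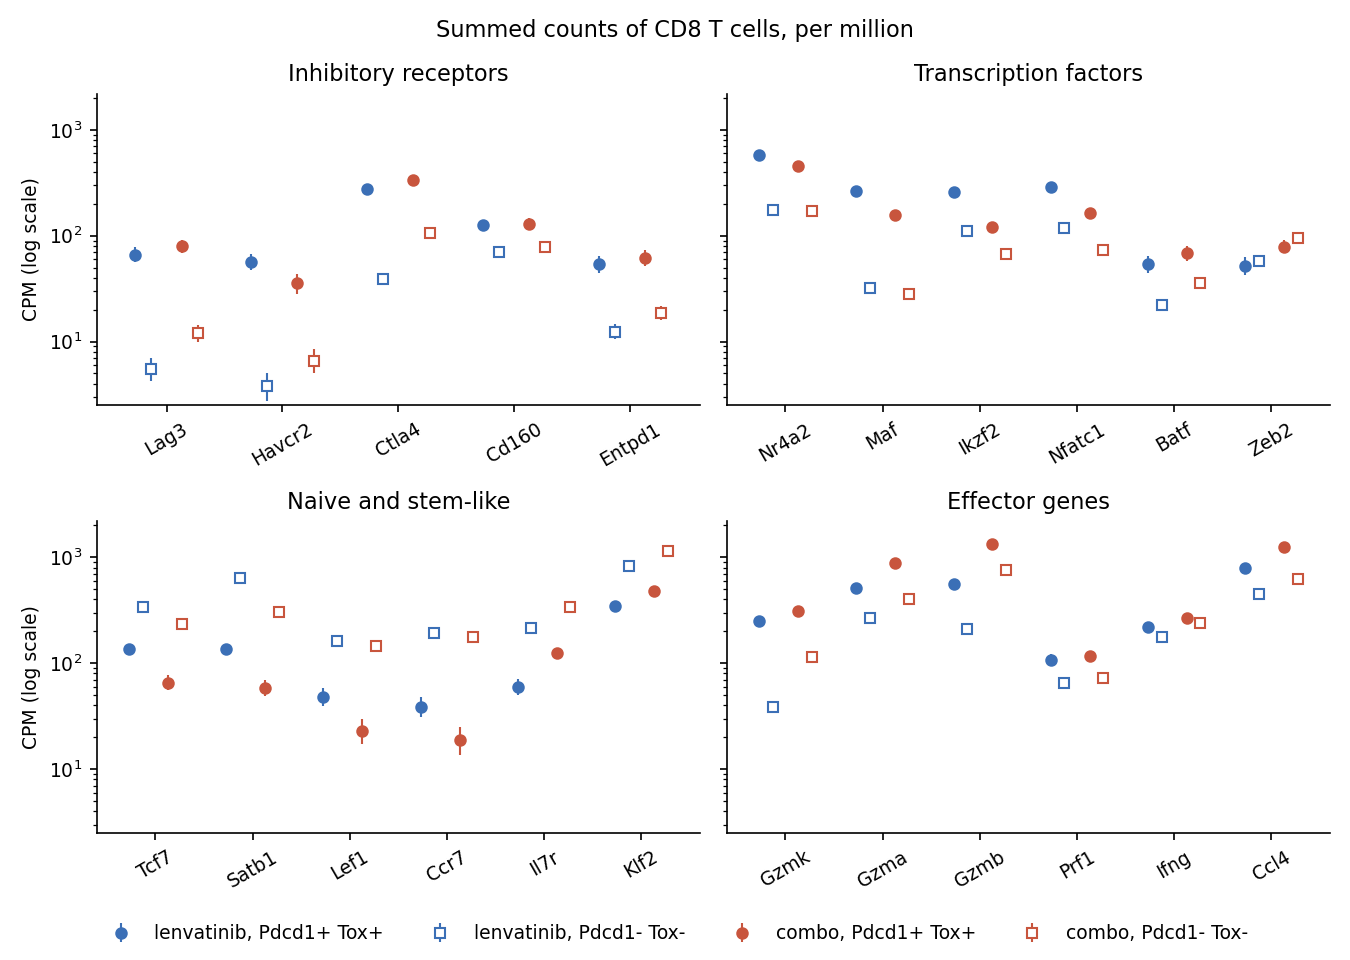
Level (CPM, log scale, vertical axis) of named genes in Pdcd1+ Tox+ CD8 T cells (filled circles) and Pdcd1- Tox- CD8 T cells (open squares) of the lenvatinib and the combo library, in 4 panels by gene role. Error bars are exact 95% Poisson intervals of the summed counts (counting error only). Lag3 was at 66.2 and 79.4 CPM in the Pdcd1+ Tox+ cells and at 5.50 and 12.0 CPM in the Pdcd1- Tox- cells, and Tcf7 was higher in the Pdcd1- Tox- cells of both libraries.

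The comparison of the treatments within Pdcd1+ Tox+ cells asks what palbociclib on top of lenvatinib went with in these cells. In 3199 genes compared, 92 (2.88%) were higher under combo and 497 (15.5%) lower. The median ratio was 0.868, a log2 difference of -0.20, and relative to this median 218 genes were higher and 195 lower. Many of the genes differed in the same way in Pdcd1- Tox- cells. Of 2692 genes compared in both cell groups, 56 were higher under combo in both, 73.7% of those higher in members, and 164 were lower in both, 46.6% of those lower in members.

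Of 7 inhibitory receptors compared, 0 were higher under combo and 1 was lower, which is near the 15.5% of all genes that were lower. The 1 was Havcr2, with 56.9 and 35.4 CPM, a ratio of 0.623 (0.467 to 0.827). Relative to the median ratio, Havcr2 no longer passed 1.5-fold. Ctla4 was at 275 and 336 CPM, a ratio of 1.22 (1.10 to 1.36), and Lag3 at 66.2 and 79.4 CPM, a ratio of 1.20 (0.961 to 1.5), whose interval includes 1. In Pdcd1- Tox- cells the combo levels were higher by more, with 39.3 and 107 CPM for Ctla4 and 5.50 and 12.0 CPM for Lag3.

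Of the 15 transcription factors compared, 6 were lower under combo and 1 higher, against the background of 15.5% and 2.88% of all genes. Ikzf2 was at 257 CPM under lenvatinib and 120 under combo, a ratio of 0.469 (0.405 to 0.541). At 3000 UMIs it was found in 36.6% of members under lenvatinib and 19.4% under combo, and in 5.54% and 1.83% of B cells. In Pdcd1- Tox- cells Ikzf2 was at 112 and 67.5 CPM, so it was lower under combo there too. Nfatc1 was at 287 and 163 CPM, a ratio of 0.569 (0.500 to 0.647). Its ratio in Pdcd1- Tox- cells was 0.626 without the cells that held many UMIs of another cell type, described below. Maf, with 266 and 158 CPM, Eomes, with 200 and 132 CPM, Tbx21, with 68.9 and 42.7 CPM, and Nr4a3, with 164 and 108 CPM, were the others that were lower. Eomes and Tbx21 encode the paired T-box factors of effector and memory CD8 T cells. Relative to the median ratio, only Ikzf2 and Nfatc1 of these 6 passed 1.5-fold. Zeb2, a factor of terminal effector cells, was the 1 that was higher, with 52.0 and 78.9 CPM, a ratio of 1.52 (1.20 to 1.93). In Pdcd1- Tox- cells, again without the cells that held many UMIs of another cell type, Zeb2 was at 1.93 times. There Tbx21 was at 0.603, Eomes at 0.706, Nr4a3 at 0.703 and Maf at 0.892 times.

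Of 5 naive and stem-like genes compared, 3 were lower under combo, Tcf7 and Satb1 among them, and Il7r was higher. Of all genes compared, 15.5% were lower and 2.88% higher. Tcf7 was at 136 and 65.7 CPM, a ratio of 0.485 (0.397 to 0.591), and Satb1 at 136 and 58.9 CPM, a ratio of 0.433 (0.352 to 0.531). Both were lower in Pdcd1- Tox- cells as well, with 336 and 233 CPM for Tcf7 and 640 and 304 CPM for Satb1. The share of members with Tcf7 at 3000 UMIs was 58 of 292, 19.9% (15.4 to 24.9), under lenvatinib and 40 of 324, 12.3% (8.97 to 16.4), under combo. Their ratio of 0.622 was bounded by the ends of the intervals at 0.36 and 1.06, which includes 1. These bounds are wider than an interval of the ratio itself, so they do not decide whether the shares differed. In B cells Tcf7 was found in 7.0% and 2.52%.

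Il7r was at 59.5 and 125 CPM, a ratio of 2.10 (1.71 to 2.60). Relative to the median ratio, Tcf7 and Satb1 stayed lower, Il7r stayed higher and Klf2, a factor of resting T cells with 347 and 483 CPM, became the 2nd higher gene of this list. Few members carried Il7r. Of its UMIs, 60.4% under lenvatinib and 46.4% under combo lay in the 10 members with the most. Its share of members at 3000 UMIs, 8.22% and 13.6%, stood beside 7.87% and 6.19% of B cells, so under lenvatinib the shares were close. Whether these UMIs came from free RNA was not tested.

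By level, the genes of granzymes A and B passed 1.5-fold under combo, 2 of the 11 cytotoxic genes compared, with none lower. Over all genes, 2.88% were higher and 15.5% lower. For Gzma the share of cells did not follow the level, as given below. Gzmb, on chromosome 14 from 56258838 to 56262260, was at 555 CPM under lenvatinib and 1324 under combo, a ratio of 2.39 (2.23 to 2.55). It was found in 55.5% and 69.8% of members at 3000 UMIs and in 11.1% and 7.80% of B cells. Gzmb differed by more in Pdcd1- Tox- cells, with 211 and 753 CPM, a ratio of 3.57. Gzma was at 509 and 879 CPM, a ratio of 1.73 (1.61 to 1.86), but its share of members was 32.5% and 29.9%, and 26.2% of B cells held it under lenvatinib against 5.73% under combo. The share and the level of Gzma thus went in opposite directions, and no order is read from it. Prf1, the pore-forming perforin, was at 108 and 117 CPM, and Fasl, the death ligand, at 126 and 151 CPM.

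Of 6 cytokine and chemokine genes compared, Ccl4 was higher under combo, with 785 and 1256 CPM, a ratio of 1.60 (1.51 to 1.70). Tgfb1 was lower, with 116 and 76.8 CPM, a ratio of 0.662. Among all genes, 2.88% were higher and 15.5% lower. Ifng, the main antiviral and antitumor cytokine of CD8 T cells, was at 218 and 270 CPM, a ratio of 1.24 (1.10 to 1.39). Xcl1, which draws cross-presenting dendritic cells, was at 522 and 383 CPM, a ratio of 0.734.

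Receptors for chemokines, matrix and cytokines were lower under combo or within 1.5-fold. Of 12 migration genes, Cxcr6, Ccr2, Itga1, Itga4 and Itgb1 were lower and none higher, against 15.5% and 2.88% of all genes. Cxcr6 was at 327 and 209 CPM, a ratio of 0.639 (0.568 to 0.717), and was found in 56.2% and 43.8% of members at 3000 UMIs. Ccr2, the receptor for monocyte chemoattractants, was at 94.6 and 39.7 CPM, a ratio of 0.419 (0.325 to 0.537). Relative to the median ratio, Ccr2 alone of these 5 passed 1.5-fold. Il2rb, the beta chain of the IL-2 and IL-15 receptors, was at 719 and 370 CPM, a ratio of 0.515 (0.474 to 0.560), and was the 1 cytokine receptor of 9 that was lower. Ratios in Pdcd1- Tox- cells, without cells that held many UMIs of another cell type, described below, were 0.612 for Ccr2 and for Il2rb. They were 0.905 for Cxcr6, 1.19 for Itga1, 0.992 for Itga4 and 0.892 for Itgb1. Of 15 genes of T cell receptor signalling, Zap70 and Ptpn11 were lower, a share no larger than the 15.5% of all genes, and neither passed 1.5-fold relative to the median ratio. Zap70, the kinase that binds the activated receptor, was at 152 and 92.6 CPM. None of 7 costimulatory genes passed 1.5-fold, and their median ratio of 0.909 turned to 1.05 relative to the median of all genes.

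Palbociclib acts on CDK4 and CDK6, the cyclin D kinases that release cells into S phase. Of 7 genes of that pathway compared, Cdk6 and Rbl2 were lower under combo and Cdkn1a higher, and relative to the median ratio 1 was lower and 2 were higher. Before that division, 15.5% of all genes were lower and 2.88% higher. Cdk6, on chromosome 5 from 3341485 to 3531008, was at 271 CPM under lenvatinib and 172 under combo, a ratio of 0.636 (0.560 to 0.722), which did not pass 1.5-fold relative to the median ratio. It was found in 47.3% and 34.9% of members at 3000 UMIs. In B cells it was found in 13.99% and 5.05%, and whether B cells express Cdk6 was not tested. In Pdcd1- Tox- cells Cdk6 was at 100 and 95.9 CPM, so members were at 2.70 times the level of those cells under lenvatinib and 1.80 times under combo. Cdk4 was at 65.3 and 89.2 CPM, a ratio of 1.37 (1.10 to 1.70). Rbl2, a retinoblastoma relative, was at 157 and 84.9 CPM, and Cdkn1a, the inhibitor p21, at 42.7 and 77.2 CPM, a ratio of 1.81 (1.41 to 2.34). Without cells that held many UMIs of another cell type, described below, Cdkn1a was at 1.64 times in members and 1.96 in Pdcd1- Tox- cells. Rbl2 was then at 0.552 and 0.899 times.

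Although cells in mitosis had been set apart, genes of DNA replication could be read in the members. Of 8 S-phase genes compared, Mcm5, Pcna and Dut were lower under combo and none higher, against 15.5% and 2.88% of all genes. Pcna, the sliding clamp of DNA polymerase, was at 271 and 161 CPM, a ratio of 0.593. Relative to the median ratio 1 of the 3 passed 1.5-fold. In Pdcd1- Tox- cells 1 of the 4 S-phase genes compared was lower under combo and none higher.

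Most immediate early and glycolysis genes stayed within 1.5-fold between the treatments, and those that passed it were higher under combo. Of all genes compared, 2.88% were higher. Fos, Jun and Jund were those that passed among the 9 immediate early genes compared, with none lower. Jun was at 163 and 320 CPM, a ratio of 1.97 (1.73 to 2.23), and at 305 and 474 CPM in Pdcd1- Tox- cells. These genes are induced by T cell receptor signals and by cell stress alike. Of 11 glycolysis genes compared, 10 had a ratio over 1, and Aldoa and Tpi1 passed 1.5-fold, with 409 and 634 CPM for Aldoa and 114 and 173 CPM for Tpi1. Relative to the median ratio 7 of 11 passed it, against 218 higher and 195 lower of 3199 genes. Among Pdcd1- Tox- cells 2 of 11 glycolysis genes were higher under combo too. None of the glycolysis genes that could be compared, 10 under lenvatinib and 11 under combo of 14 listed, differed by 1.5-fold between members and Pdcd1- Tox- cells.

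The other lists held few genes past 1.5-fold, and of all genes compared 15.5% were lower under combo and 2.88% higher. Hspa1a, a heat shock chaperone whose reads can be split with its near-identical copy Hspa1b, was at 20.4 and 54.2 CPM in members and at 28.7 and 17.8 CPM in Pdcd1- Tox- cells. Of 12 interferon-stimulated genes, Ifi27l2a was lower, with 1021 and 463 CPM, and Ifitm3 higher, with 53.3 and 191 CPM. Without the cells that held many UMIs of another cell type, described below, Ifitm3 was at 16.5 and 73.8 CPM in members. In Pdcd1- Tox- cells it was then at 19.5 and 60.4 CPM, and the part of free RNA was not tested. Ifi27l2a was then at a combo to lenvatinib ratio of 0.450 in members and 0.499 in Pdcd1- Tox- cells. Of 9 genes of MHC class I presentation, Tapbp and Nlrc5 were lower. Nlrc5, the transactivator of class I genes, was at 140 and 76.8 CPM. Of 9 survival and death genes, 2 were lower, Bak1 among them, and Bcl2a1b, which has near-identical copies, was higher. Bak1, a pore former of apoptosis, was at 59.98 and 27.7 CPM.

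Of 7 NK receptor genes compared, Klra7 and Klrc2 were lower under combo, against 15.5% of all genes. Klra7, a Ly49 receptor of a multigene family whose members can share reads, had the lowest combo to lenvatinib ratio of all genes ranked. It was at 72.4 and 11.1 CPM, a ratio of 0.153 (0.0972 to 0.233), and in Pdcd1- Tox- cells at 70.5 and 28.3 CPM. Klrc2 was at 83.1 and 42.2 CPM.

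Members with and without a Tcf7 UMI differed in many genes in both libraries. The split was made on a readout, and deeper cells hold Tcf7 UMIs more often, with medians of 8252 and 5056 UMIs under lenvatinib and 8103 and 5195 under combo. It is therefore given as a description. The 93 and 75 members with Tcf7 held more Il7r, at 14.8 times (7.99 to 30.4) and 5.01 times (3.88 to 6.51) the level of the 217 and 259 members without. They held more Xcl1, at 3.37 and 2.61 times, more Id3, a factor of memory precursors, at 4.13 and 2.40 times, and more Slamf6, a surface marker of stem-like exhausted cells, at 2.29 and 3.07 times. They held less Havcr2, at 0.217 times (0.124 to 0.358) and 0.262 times (0.115 to 0.524), less Lag3, at 0.334 and 0.534 times, and less Entpd1, at 0.294 and 0.561 times. Gzmb was at 0.395 and 0.726 times, and Cxcr6 at 0.341 and 0.558 times. Not all receptors were lower, with Cd160 at 1.08 (0.846 to 1.37) and 0.791 (0.606 to 1.02) times and Klrc1 higher, at 2.57 (1.89 to 3.52) and 1.68 (1.28 to 2.20) times. Genes of other cell types also differed with the split, with Lyz2 at 0.0580 and 0.322 times, S100a8 at 0.210 and 0.198 times, Cd74 at 0.154 and 2.64 times, and Trdc, a gamma-delta T cell gene, at 6.29 and 1.61 times. Without the members that held many UMIs of another cell type, described below, Havcr2 was at 0.226 and 0.272 times, Lag3 at 0.319 and 0.511 times, and Il7r at 14.6 and 4.74 times. Id3 was then at 7.05 and 2.63 times. In the same cells Lyz2 was at 0.444 and 1.04 times and Trdc at 6.16 and 1.79 times. Klrb1c and Ncr1, receptors known from NK cells, were at 3.60 and 6.61 times and at 6.00 and 3.84 times.

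**Figure D5:**
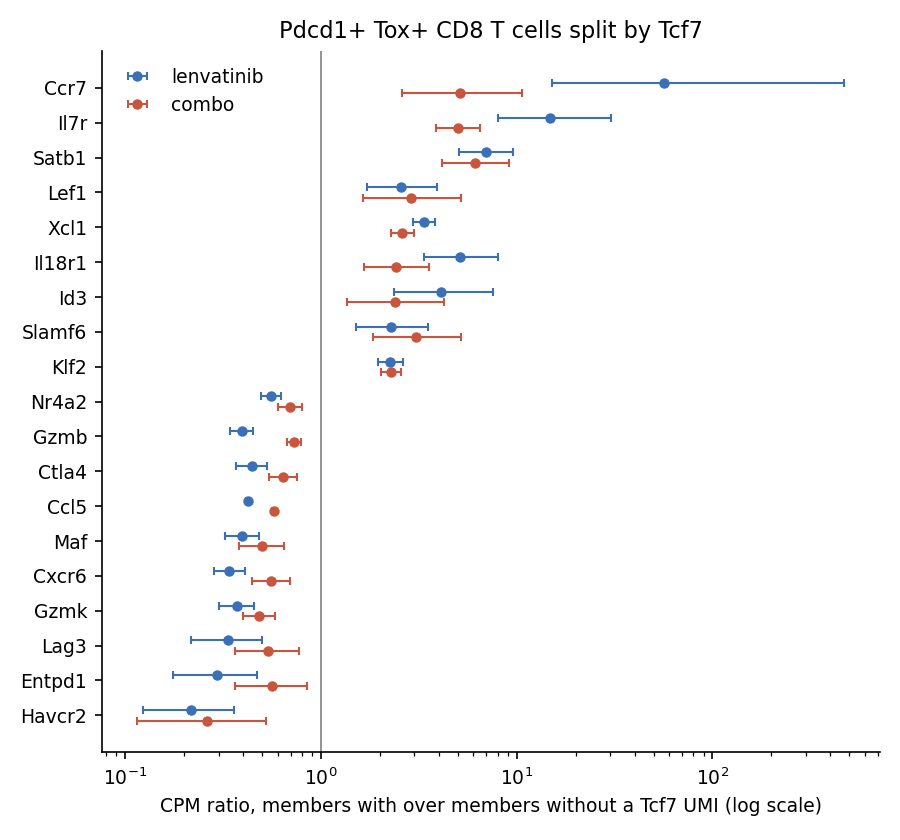
Ratio of CPM in Pdcd1+ Tox+ CD8 T cells with a Tcf7 UMI over those without (log scale, horizontal axis) for named genes, in the lenvatinib and the combo library. Points are ratios and bars exact 95% intervals (counting error only). Il7r, Satb1 and Xcl1 lay above 1 in both libraries and Havcr2, Lag3 and Entpd1 below 1.

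Cells with UMIs of both Tcf7 and Havcr2 were few, 2 of 292 members under lenvatinib and 1 of 324 under combo at 3000 UMIs. Havcr2 alone was found in 41 and 30 members, Tcf7 alone in 56 and 39, and neither in 193 and 253. Most members thus held neither marker at this depth. The 77 and 57 members with a Havcr2 UMI before thinning held less Xcl1 than the others, at 0.314 and 0.260 times, and more Prf1, at 1.92 (1.48 to 2.5) and 1.42 (1.07 to 1.88) times. Gzmb was at 1.65 times (1.47 to 1.85) in the Havcr2+ members under lenvatinib and at 0.791 times (0.716 to 0.871) under combo.

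The same genes were read in the other CD8 T cells of both libraries. Lag3 was at 36.8 CPM in the 750 Gzmk+ cells without both Pdcd1 and Tox under lenvatinib and at 36.9 CPM in the 1112 under combo. Those Gzmk+ cells held effector genes at levels close to or above those of members, with Gzmb at 564 and 1444 CPM, Gzma at 739 and 865 CPM, Ifng at 271 and 340 CPM and Ccl5 at 11069 and 13852 CPM. The 72 and 23 cycling Pdcd1+ Tox+ cells held Lag3 at 47.0 and 31.8 CPM and Havcr2 at 31.3 and 31.8 CPM. In cells with Pdcd1 but no Tox, Tox2 was at 18.0 and 2.18 CPM, and in cells with Tox but no Pdcd1 at 8.31 and 3.85 CPM. Maf, at 266 and 158 CPM in members, was at 196 and 74.9 CPM with Pdcd1 alone and at 76.6 and 65.4 CPM with Tox alone. Tcf7 was lower in the cycling cells than in members of either library, at 92.0 and 40.8 CPM. The cycling cells under combo were 23, so their levels rest on few counts.

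Genes of neutrophils had the highest combo to lenvatinib ratios in members. The 10 genes ranked highest were Retnlg, Stfa2l1, Ifitm6, Asprv1, Ltf, Lrg1, Gda, Chil3, Mmp9 and Lcn2, and Retnlg was at 8.0 and 867 CPM. All 4 neutrophil markers compared were higher, and the list of 6 summed to 895 CPM under lenvatinib and 14575 under combo, with none of the 6 at 0. The same list summed to 409 and 8615 CPM in Pdcd1- Tox- cells. At 3000 UMIs S100a8 was found in 31.8% and 86.7% of members, 30.7% and 87.2% of Pdcd1- Tox- cells and 35.0% and 89.7% of B cells, so these shares stood at the level of the background. A few cells held most of the UMIs. Under combo, 10 members with at least 40 UMIs of S100a8 and S100a9 held 90.4% of the 30724 UMIs of this pair, while the median member held 8.

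Markers of dendritic cells went the other way, with 483 CPM under lenvatinib and 145 under combo for the summed list, of which H2-Ab1 and Cd74 were lower. Under lenvatinib, 4 members held 87.6% of the 1623 UMIs of MHC class II genes and Cd74. Monocyte and macrophage markers summed to 203 and 516 CPM, B cell markers to 97.3 and 81.1 CPM and plasma cell markers to 47.5 and 58.0 CPM. Under lenvatinib Sdc1, a defining marker of plasma cells, was at 0 in members. In all, 6 members under lenvatinib and 15 under combo held many UMIs of another cell type, and Scrublet had called 3 and 5 of them. The limits, chosen after seeing the data, were 40 UMIs of S100a8 and S100a9, 40 of Lyz2, 20 of H2-Aa, H2-Ab1, H2-Eb1 and Cd74, or 4 of Cd79a and Cd79b. Without them the neutrophil list stood at 274 and 1610 CPM and the dendritic list at 68.8 and 71.9 CPM. Leaving them out gave 80 higher and 472 lower genes in the comparison of the treatments. Havcr2 was then at a ratio of 0.632, Tcf7 at 0.508, Il7r at 2.12, Gzmb at 2.58 and Cdk6 at 0.652, close to the values with all members.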

How the data were processed

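Live CD45+ cells of 2 libraries, 1 per treatment, were profiled with the 10x 3′ v3 kit. The authors aligned and counted UMIs with Cell Ranger against mm10, version 5.0.1 per the labels and 6.0.1 per the file headers, and deposited raw UMI counts of 32285 genes per barcode in filtered matrices. Seurat, sctransform and SingleR, used in the study, were not run here.

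Cells with at most 6000 genes and at most 25% mitochondrial UMIs were kept. The members and the 29 gene lists were chosen with earlier results of these data known. Counts were summed per library and cell group and scaled to CPM with numpy 2.4.6, pandas 2.3.3 and scipy 1.17.1. With 1 library per treatment no test was run. Shares have exact binomial (Clopper-Pearson) intervals, CPM exact Poisson intervals and ratios of CPM exact conditional intervals, all 95% and all for counting error only. Shares at a fixed depth are the mean over all possible draws of 3000, 2000 or 4000 UMIs per cell, rounded to whole cells. The number of inhibitory receptors per cell is the mean of 20 draws. Shallower cells were left out, for members 18 under lenvatinib and 10 under combo at 3000 UMIs. Droplets that hold 2 cells were called by Scrublet (scanpy 1.11.5, 6% expected) but not removed. Scripts were tested on simulated data. Coordinates and gene names follow the mm10 annotation. Strand and sequence were not used.

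Any gene of the lists could be named. Beyond them, the 10 genes with the highest and the 10 with the lowest combo to lenvatinib ratio in members were named, and the 10 highest and 10 lowest against Pdcd1- Tox- CD8 T cells, ranked by the smaller log2 ratio of the libraries. Genes of the rule, T cell receptor, immunoglobulin, mitochondrial, ribosomal protein and hemoglobin genes and unnamed gene models were kept out of the ranks. Some listed or ranked genes are not reported here. The alternatives tried were other thinning depths, cell filters, limits on Pdcd1 and Tox, other totals, mean CPM per cell, division by the median ratio, other limits on fold and CPM, and leaving out doublets or cells with many UMIs of another cell type.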

Additional observations from a re-analysis of the deposited data

Results flagged for a closer look

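The cystatin gene Cst3 was at 0.347 times its lenvatinib level under combo in Pdcd1+ Tox+ cells and at 1.51 times in Pdcd1- Tox- cells, and Ighm, the heavy chain of IgM, at 0.584 and 1.77 times. These genes stood out because the cell groups went in opposite directions past 1.5-fold, and the difference was not tested. Without cells that held many UMIs of another cell type, the ratios were 1.18 and 1.40 for Cst3 and 0.475 and 0.532 for Ighm, so that the cell groups went the same way. Of the Cst3 UMIs of members under lenvatinib, 80.4% lay in 10 of 310 cells. The MHC class II genes went in opposite directions between the libraries when members were set against Pdcd1- Tox- cells, which was not tested either. H2-Ab1 was at 1.85 times under lenvatinib and 0.5 times under combo, H2-Aa at 1.80 and 0.596 times, and H2-Eb1 at 1.82 and 0.621 times. Of the H2-Ab1 UMIs of members under lenvatinib, 90.1% lay in 10 cells. Without the same cells H2-Ab1 was at 0.902 and 0.968 times, H2-Aa at 0.863 and 0.792 times, and H2-Eb1 at 0.707 and 1.06 times.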

How the results depend on the processing

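No paired analysis was possible because each treatment was 1 library with no replicate number to share, and no replicate could be left out. The ratio of the shares of members among CD8 T cells was 1.30 and between 1.14 and 1.52 under the other settings, except 1.04 with at least 2 Tox UMIs, and among all cells 1.32, between 1.07 and 1.54, except 1.05 with at least 2 Tox UMIs. With a 2-fold limit, 97 genes in place of 589 passed between the treatments, 149 in place of 476 between members and Pdcd1- Tox- cells under lenvatinib, and 76 in place of 242 under combo. With 20 CPM as the lower limit the counts were 1289, 988 and 589, and with no CPM limit 3189, 3804 and 2985. A total without mitochondrial, ribosomal protein and hemoglobin genes gave 187 higher and 472 lower genes between the treatments, 280 and 304 against Pdcd1- Tox- cells under lenvatinib, and 175 and 153 under combo. Leaving out members with many UMIs of another cell type, chosen after seeing the data, turned the combo to lenvatinib ratio of H2-Ab1 to 1.05 and of Cd74 to 1.02. It also turned the ratios to Pdcd1- Tox- cells of H2-Ab1 under lenvatinib to 0.902 and of S100a8 and S100a9 under combo to 0.988 and 0.993. Leaving out called doublets turned those of S100a8 and S100a9 under lenvatinib to 0.849 and 0.912. The share ratio of Havcr2 stayed between 0.634 and 0.687 and that of Tcf7 between 0.594 and 0.749. Of 53 listed genes past 1.5-fold between the treatments, 34 still passed relative to the median ratio, and 42 to 52 under the other totals, depths and cell filters. Depth limits shares of genes such as Tigit and Tox2, and differences under counting error were not detectable. The cause of these changes was not tested.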

Other observations

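T cell receptor beta V genes were read in few members, since the kit captures the 3′ end of the message. In all, 108 Trbv UMIs were counted in 84 members under lenvatinib and 118 in 90 under combo. Trbv12-2, whose reads can be split with its relatives, took 25.0% (17.2 to 34.3) of them under lenvatinib and 20.3% (13.5 to 28.7) under combo, against 18.6% and 19.9% in Pdcd1- Tox- cells. Trbv20 took 17.6% under lenvatinib, with 19 UMIs in 12 cells, and 1.69% under combo, with 2 UMIs, against 4.65% and 2.11% in Pdcd1- Tox- cells.

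The genes ranked highest in members over Pdcd1- Tox- cells in both libraries also held Ier5l, Hip1 and Tnfrsf9. Ier5l, an immediate early response family member, was at 81.7 and 20.7 CPM under lenvatinib and at 211 and 54.4 CPM under combo. Hip1, an adaptor of clathrin-coated vesicles, was at 129 and 32.1 CPM and at 77.2 and 28.5 CPM. Among the lowest were Cmah, Nsg2, Sh3bp5, Fam241a, Dapl1 and Jchain beside Ccr7, Satb1 and Lef1. Jchain, the joining chain of secreted antibody and no T cell gene, was at 44.9 CPM in members and 136 in Pdcd1- Tox- cells under lenvatinib, and at 52.5 and 191 CPM under combo. Without cells that held many UMIs of another cell type it was at 44.7 and 49.1 CPM and at 52.5 and 54.4 CPM, ratios of 0.911 and 0.966.

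The lowest combo to lenvatinib ratios in members after Klra7 and the MHC class II genes were those of Car2, Dnmt3a, Scd2, Cst3 and Npc1. Dnmt3a, a DNA methyltransferase, was at 53.3 and 16.6 CPM in members and at 38.6 and 16.7 CPM in Pdcd1- Tox- cells. Car2, a carbonic anhydrase, was at 57.3 and 14.1 CPM in members and at 17.6 and 10.4 CPM in Pdcd1- Tox- cells. Nrp1, a semaphorin receptor, was found in 14.4% of members under lenvatinib and 6.48% under combo at 3000 UMIs.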
